A study of Rattus norvegicus with 12 samples.

Results

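ChREBPβ delivered by a virus in low glucose was set against high glucose with a control virus, to see where the transcription factor without high glucose did not equal high glucose without the extra factor. The cells were INS-1 832/13 cells, an insulin-secreting line cloned from a rat insulinoma. Of the 12 libraries of the series, the 6 compared were the 3 from cells that carried an adenovirus for ChREBPβ and were kept in 2 mM glucose, and the 3 from cells that carried an adenovirus for GFP and were kept in 11 mM glucose. All are described as having 48 h of culture. The paper's general methods for adenovirus give longer times, and have the virus added before the glucose was set. The remaining 6 libraries, 3 with GFP at 2 mM and 3 with ChREBPβ at 11 mM, entered the fit. The GFP cells at 2 mM are given as a common reference, which is itself an end point and not a level before treatment. Both groups compared carry a virus, so no library shows untransduced cells. The line is 1 clone of tumour origin and the labels do not say whether the libraries of a group came from separate cultures. The paper describes its plotted averages as coming from 3 independent experiments, without saying how these were separated. The p-values therefore measure the spread between these libraries, part of which may be technical. The members of the comparison are all named genes of the count table, 28727 in number, of which 14669 had enough counts to be tested.

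ChREBP, encoded by Mlxipl, is a transcription factor that pairs with Mlx, binds carbohydrate response elements in promoters and is activated by metabolites of glucose. ChREBPβ is a shorter isoform that lacks the region through which low glucose holds the protein inactive, so it is active without glucose. In β-cells the known targets of ChREBP include enzymes of glycolysis and lipid synthesis and Txnip, an arrestin that restrains glucose uptake and binds thioredoxin. High glucose also acts on β-cells in ways that need no ChREBP, among them ATP production, closure of potassium channels, calcium entry and secretion.

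The ChREBPβ libraries at 2 mM held 28595982, 57726412 and 57313995 counts and the GFP libraries at 11 mM held 44398404, 36219167 and 46654823 counts, so replicate a of ChREBPβ was the least deep. Values are CPM, counts over a library size scaled by TMM factors, which take the bulk of genes as unchanged and give no amount of RNA per cell. A gene was called where edgeR's quasi-likelihood test gave an adjusted p under 0.05 and the difference was at least 1.2-fold. It was said to lie within 1.2-fold where the whole 95% interval of its log2 fold change stayed inside ±0.263. A positive log2 fold change means a higher level in the ChREBPβ cells at 2 mM.

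The overexpressed gene gave no check of the labels. Mlxipl stood at 203, 212 and 199 CPM in the libraries labelled ChREBPβ at 2 mM and at 202, 212 and 208 CPM in those labelled GFP at 11 mM, and the log2 fold change was -0.02 (95% interval -0.13 to 0.09). GFP cells at 2 mM had 240, 252 and 277 CPM of Mlxipl. Against these its log2 fold change was -0.33 for the virus and -0.31 for glucose, both called. The virus carries a mouse sequence tagged with mCherry, and whether its reads were counted on the rat gene is not given in the sources used here. A separate entry named ChREBPb stood at 90.7, 89.7 and 90.1 CPM against 64.7, 73.3 and 66.1 CPM, a log2 fold change of 0.41 (edgeR adjusted p = 3.42e-05). In GFP cells at 2 mM it stood at 73.2, 78.0 and 82.2 CPM. Against these the log2 fold change was 0.21 for the virus and -0.19 for glucose, neither called. What sequence the entry counts is likewise not given. Groups are therefore named by their labels throughout.

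The promoters of 4 responsive genes are shown because they carry E-box sequences, and because 3 of the genes were higher and 1 was lower in the comparison. Pklr and Rgs16 hold a pair of E-box parts set apart by a gap. Bhlhe40 and Arrdc4 hold only a single CACGTG, which 9.17% of the promoters of tested genes held. Binding of ChREBP to these windows was not measured in these libraries. Each window runs from 250 bases before to 50 bases after the annotated start, as RefSeq gives it for GRCr8, 5′ to 3′ on the strand of the gene. Capitals mark a match to CACGTG or to the spaced pair of E-box parts CANGNG and CNCNTG with 5 bases between them, both of which read the same on either strand. Pklr lies on the plus strand at chr2:176841014-176841313 and its match starts 168 bases before the start site. Rgs16 is at chr13:68437870-68438169 on the plus strand, with the match 12 bases before the start. Bhlhe40 is at chr4:143174200-143174499 on the plus strand and Arrdc4 at chr1:131793376-131793675 on the minus strand, each with a single CACGTG, 220 and 177 bases before the start.
Pklr: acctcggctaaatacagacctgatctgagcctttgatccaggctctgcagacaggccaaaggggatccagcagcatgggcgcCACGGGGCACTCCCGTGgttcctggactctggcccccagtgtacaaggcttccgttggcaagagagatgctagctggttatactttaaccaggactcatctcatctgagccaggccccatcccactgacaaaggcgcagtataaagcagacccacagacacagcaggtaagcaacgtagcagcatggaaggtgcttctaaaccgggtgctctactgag
Rgs16: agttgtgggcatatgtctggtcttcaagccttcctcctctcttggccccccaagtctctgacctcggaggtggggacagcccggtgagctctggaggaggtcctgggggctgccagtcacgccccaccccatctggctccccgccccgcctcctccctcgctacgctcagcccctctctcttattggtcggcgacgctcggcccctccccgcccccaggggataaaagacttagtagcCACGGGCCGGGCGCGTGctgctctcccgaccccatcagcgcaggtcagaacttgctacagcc
Bhlhe40: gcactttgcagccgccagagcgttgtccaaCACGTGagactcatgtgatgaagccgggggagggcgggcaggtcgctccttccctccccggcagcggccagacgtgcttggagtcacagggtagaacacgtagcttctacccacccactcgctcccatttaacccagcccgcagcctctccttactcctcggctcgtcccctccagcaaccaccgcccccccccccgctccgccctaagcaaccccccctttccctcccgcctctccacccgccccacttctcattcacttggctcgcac
Arrdc4: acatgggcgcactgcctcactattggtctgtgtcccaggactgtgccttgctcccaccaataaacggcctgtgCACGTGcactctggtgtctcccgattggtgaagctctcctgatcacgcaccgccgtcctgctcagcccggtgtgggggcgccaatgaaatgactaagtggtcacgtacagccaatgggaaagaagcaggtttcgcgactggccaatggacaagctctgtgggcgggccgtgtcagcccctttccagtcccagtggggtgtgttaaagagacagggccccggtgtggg

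The spaced pair of E-box parts was found in 0.524% of all 27457 promoters. It was present in 19 of the 1293 promoters of genes called higher in the ChREBPβ cells at 2 mM, or 1.47%, in 3 of 1542 promoters of genes called lower, or 0.195%, and in 0.536% of the 7275 promoters of genes not called. CACGTG was found in 6.65% of all promoters, 11.5% of the higher, 6.16% of the lower and 9.39% of the genes not called. These are counts of letters in short windows and were not tested. Of the 28 ChREBP-related genes listed for this comparison 19 had a promoter in the table, of which 4 held CACGTG, 2 the spaced pair and 13 neither. Fgf21 and Mlx, which were not called, were the others with CACGTG. Txnip, Fasn, Acaca and Gpd1 were among the listed genes without a promoter there, so neither motif was looked for in them.

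ChREBPβ in low glucose and high glucose with GFP left the cells at different levels of 3955 of the 14669 tested genes, or 27.0%. Of these calls, 1787 (12.2%) were higher and 2168 (14.8%) were lower in the ChREBPβ cells at 2 mM. A further 4547 genes (31.0%) lay within 1.2-fold by their interval, and 6167 were neither called nor shown to be close. For 7775 genes (53.0%) the 3 libraries of one group did not overlap the 3 of the other. The higher calls were 45.2% of all calls, and 33.0% when the library totals alone were used for scaling.

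The higher genes reached further than the lower ones. At least 2-fold differences were seen in 501 higher and 294 lower genes, at least 4-fold in 161 and 25, and at least 8-fold in 63 and 7. Restricted to a mean CPM of 5 or more over the 6 libraries, 52 higher genes and 1 lower gene passed 4-fold, and 18 and 0 passed 8-fold. Of the 63 genes, 17 had at most 3 counts in each GFP library at 11 mM, where the fitted fold is not a measured size, and the same held for 5 of the 7 in the ChREBPβ libraries. The number of genes at least 8-fold lower depended on the libraries, with 13 without replicate b and 10 without replicate c of ChREBPβ at 2 mM. The median log2 fold change of all tested genes was -0.01. In the separate comparisons with GFP at 2 mM, which share those control libraries, ChREBPβ at 2 mM called 44.1% of the genes and 11 mM glucose called 20.2%.

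**Figure D1:**
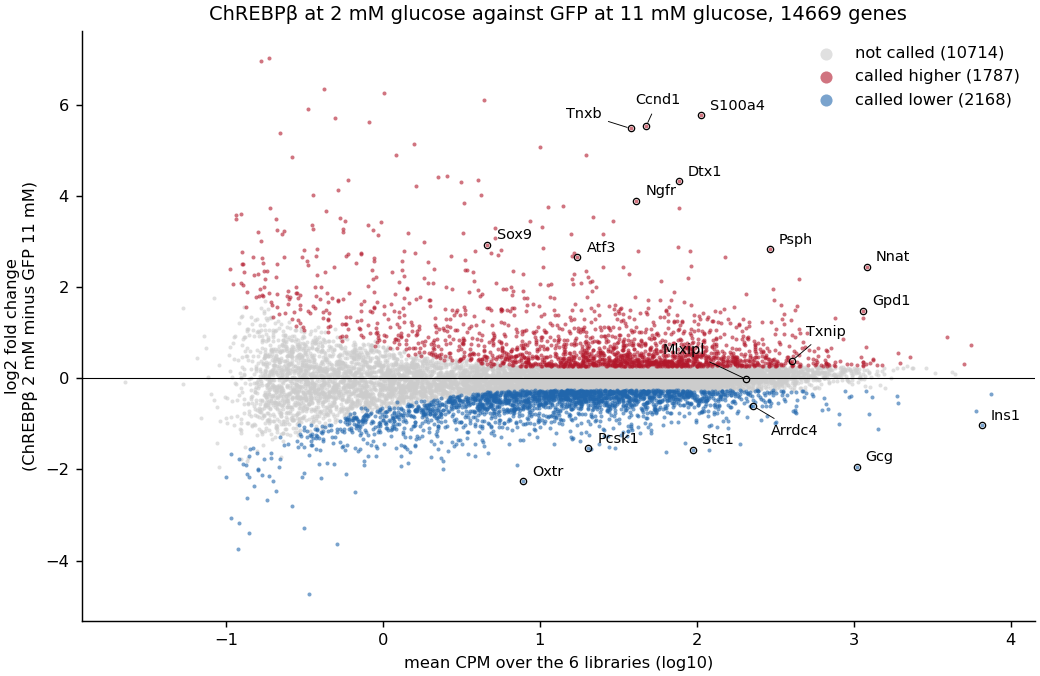
Each point is 1 of 14669 tested genes, with the mean CPM over the 6 libraries on a log10 axis against the log2 fold change between ChREBPβ at 2 mM and GFP at 11 mM. The 1787 genes called higher (red) spread upward to S100a4 at 5.77 among genes of at least 5 CPM, whereas the 2168 called lower (blue) reach Oxtr at -2.26 among genes of at least 5 CPM.

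Of 24 tested members of the list of ChREBP, Mlx and their targets, 13 were called higher with the virus and 2 lower, 5 lay within 1.2-fold and 4 were neither. The called share was 62.5% against 27.0% of all genes, and the median log2 fold change was 0.80 against -0.01. Acaca, which makes malonyl-CoA for fatty acid synthesis, stood at 514, 531 and 518 CPM in ChREBPβ cells at 2 mM and at 155, 183 and 173 CPM in GFP cells at 11 mM. All 3 ChREBPβ libraries were about 3-fold above the GFP libraries, with no overlap, and the log2 fold change was 1.61 (SE 0.06, edgeR adjusted p = 4.86e-14). Gpd1, the cytosolic glycerol-3-phosphate dehydrogenase, stood at 1607, 1735 and 1717 CPM against 596, 566 and 648 CPM, a log2 fold change of 1.48 (SE 0.06). Bhlhe40, a repressor that binds E-boxes, was at 218, 222 and 227 CPM against 78.2, 75.6 and 79.2 CPM, and its log2 fold change was 1.52 (SE 0.05). The groups did not overlap for either gene.

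Fasn, the fatty acid synthase, was at 1606, 1624 and 1673 CPM with ChREBPβ and 636, 693 and 633 CPM in GFP cells at 11 mM, again without overlap (log2 fold change 1.32, SE 0.06). Acly, which supplies cytosolic acetyl-CoA, differed by 0.90, and Tkt, a pentose phosphate enzyme, by 0.99. Pklr, the liver-type pyruvate kinase whose promoter is shown above, was at 406, 419 and 426 CPM against 218, 193 and 222 CPM (log2 fold change 0.98, SE 0.05, edgeR adjusted p = 1.02e-12). Rgs16, a regulator of G protein signalling, differed by 1.03 and Ppp1r3b, a glycogen-targeting subunit of protein phosphatase, by 0.70. G6pc, the glucose-6-phosphatase of liver, had 18, 54 and 50 counts with ChREBPβ at 2 mM and 1, 0 and 0 counts with GFP at 11 mM, so no size is given. Scd, the stearoyl-CoA desaturase, was scarce, with 15, 43 and 26 counts against 11, 4 and 4 counts. Fgf21, with at most 13 counts in a library, Khk, Acacb and Mlx were neither called nor within 1.2-fold.

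Txnip was raised by either condition, and further by the virus. It stood at 450.0, 472 and 448 CPM in ChREBPβ cells at 2 mM, at 335, 347 and 370.4 CPM in GFP cells at 11 mM and at 26.8, 24.3 and 27.7 CPM in GFP cells at 2 mM. The ChREBPβ libraries were all above the GFP libraries at 11 mM, and both groups were far above the GFP libraries at 2 mM. The log2 fold change was 0.38 (95% interval 0.29 to 0.48, edgeR adjusted p = 1.05e-06), and an exact two-sided permutation test gave p = 0.1, the smallest that 3 against 3 libraries allow. Against GFP at 2 mM the log2 fold changes were 4.12 for the virus and 3.74 for glucose.

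Arrdc4, the arrestin most closely related to Txnip, went the other way. Its level was 179, 183 and 183 CPM in ChREBPβ cells at 2 mM, 275, 277 and 278 CPM in GFP cells at 11 mM and 199, 198 and 189 CPM in GFP cells at 2 mM. The GFP libraries at 11 mM stood above all others, and the difference between the groups was -0.61 on the log2 scale (SE 0.04, edgeR adjusted p = 4.64e-11). Pnpla3, a lipase-like protein of lipid droplets, was the other lower member, at 5.94, 6.88 and 6.93 CPM against 10.5, 9.94 and 11.1 CPM (log2 fold change -0.66). Me1 at 0.05, Klf10 at 0.17, Tkfc at 0.05 and Mlxip at -0.06, the MondoA gene, lay within 1.2-fold together with Mlxipl.

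**Figure D2:**
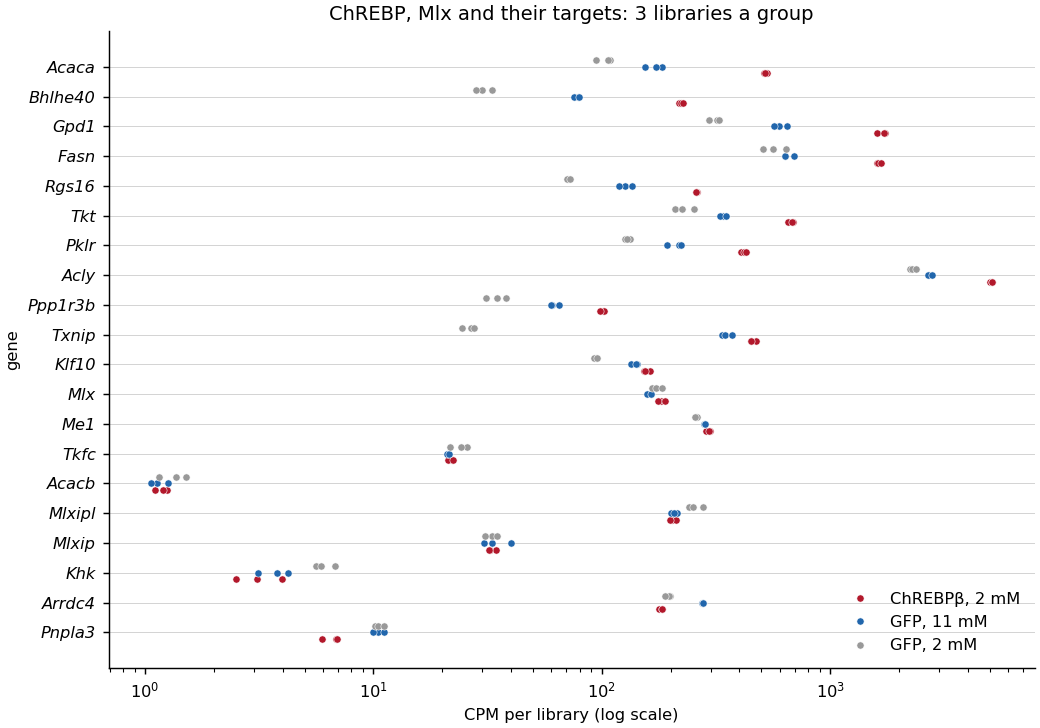
CPM per library on a log axis for 20 tested ChREBP, Mlx and target genes whose mean over the 6 libraries reached 1 CPM, ordered by fold change, with 3 points for each group. The red points of ChREBPβ at 2 mM lie to the right of the blue points of GFP at 11 mM from Acaca down to Txnip, and to the left for Arrdc4 and Pnpla3.

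In glucose uptake and glycolysis, 8 of 21 tested genes were called higher with ChREBPβ at 2 mM and 1 lower, or 42.9% against 27.0% of all genes, with a median of 0.23. The number lower was 2 without replicate b or c of either group. Slc16a1, the monocarboxylate transporter that β-cells normally keep low, stood at 30.5, 30.6 and 30.3 CPM against 15.2, 14.1 and 14.2 CPM with no overlap (log2 fold change 1.07, SE 0.06). Gpi differed by 0.86, Pfkl by 0.78, Pfkfb3, which makes the activator of phosphofructokinase, by 0.68, Pkm by 0.40 and the glucose transporter Slc2a2 by 0.34. Pfkfb2, a relative of Pfkfb3, was lower at -0.34. Pfkm at 0.15, Pgk1 at 0.15 and Ldhb at -0.08 lay within 1.2-fold. Hk2 was at most at 1.00 CPM in any of these libraries, with 0.824, 0.998 and 0.734 CPM against 0.265, 0.295 and 0.212 CPM (log2 fold change 1.73).

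Of 24 tested genes of cholesterol synthesis and uptake 12 were higher with the virus and 1 was lower, or 54.2% against 27.0%, and the median was 0.27. Pmvk, a kinase of the mevalonate pathway, stood at 48.4, 47.5 and 49.7 CPM in ChREBPβ cells at 2 mM and 31.1, 28.6 and 33.4 CPM in GFP cells at 11 mM (log2 fold change 0.64, SE 0.06). The groups did not overlap. Fdft1 differed by 0.53, Hmgcs1 by 0.50, Fdps by 0.47, and the regulators Insig1 and Srebf2 by 0.46 and 0.40. Mvd, Idi1, Sqle, Nsdhl and Dhcr7 lay within 1.2-fold, between -0.08 and 0.18. The 1 lower gene was Stard4, a sterol carrier, at -0.27, and it was not called with RLE factors, with DESeq2, or when replicate b of either group was left out. Without replicate c of ChREBPβ the number lower was 2.

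The 15 largest increases among called genes of at least 5 CPM whose groups did not overlap are given here. Ccnd1, the second of them, is left to the cell cycle. S100a4, a small calcium-binding protein, stood at 202, 209 and 218 CPM in ChREBPβ cells at 2 mM and at 4.05, 3.91 and 3.60 CPM in GFP cells at 11 mM, a log2 fold change of 5.77 (SE 0.09, edgeR adjusted p = 3.33e-20). Tnxb, a tenascin of the extracellular matrix, was at 71.1, 77.5 and 73.8 CPM against 1.64, 1.50 and 1.82 CPM (log2 fold change 5.48). Dtx1, a ubiquitin ligase of the Notch pathway, was at 147, 145 and 148 CPM against 7.30, 7.20 and 7.47 CPM (log2 fold change 4.32). In all 3 genes every ChREBPβ library was far above every GFP library.

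Also among them were Adamts8, a secreted metalloprotease, at 5.07, Islr2 at 4.89, Ngfr, the p75 neurotrophin receptor, at 3.90, Pla2g2f, a secreted phospholipase, at 3.79 and Ntng2, a netrin-related protein, at 3.75. Aif1l, which binds actin, differed by 3.75, the chemokine Cx3cl1 by 3.54, Hapln3 by 3.32 and Htra3, a secreted protease, by 3.29. Prok2, a secreted peptide, stood at 50.3, 52.3 and 57.4 CPM in ChREBPβ cells at 2 mM, 4.34, 4.29 and 5.96 CPM in GFP cells at 11 mM and 0.625, 0.496 and 0.160 CPM in GFP cells at 2 mM. The 3 groups stood in 3 separate ranges. Glucose alone raised Prok2 by 3.53 and Ihh, a hedgehog ligand, by 3.05 on the log2 scale, and the level with the virus was higher again by 3.45 and 3.46.

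Among S100 genes 5 of 7 tested were called higher and 0 lower, or 71.4% against 27.0%, with a median of 1.45. S100a5 differed by 1.48, S100a3 by 1.45 and S100a10 by 0.40, whereas S100a1 had 0.18 and S100a13 -0.23, neither past the test. S100a6 had 18, 58 and 19 counts against 0, 4 and 1 counts. In the list of matrix and mesenchymal genes 3 of 14 tested were higher and 5 lower, or 57.1% against 27.0%, and the number lower was 3 without replicate b of GFP at 11 mM. Snai1, a repressor of epithelial genes, was at 6.59, 8.15 and 8.34 CPM against 0.398, 0.402 and 0.338 CPM (log2 fold change 4.35), while Fn1, the fibronectin gene, was lower at 529, 559 and 528 CPM against 979.7, 1265 and 998 CPM (log2 fold change -1.01, SE 0.10). Zeb2, another repressor of epithelial genes, was also lower at -1.11. The collagen genes Col1a1, Col3a1 and Col6a1 had too few counts to test.

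Most β-cell transcription factors tested were lower with ChREBPβ in 2 mM than with GFP in 11 mM. Of 19, 11 were called lower and 2 higher, or 68.4% against 27.0% of all genes, with a median of -0.50. Glis3, a zinc finger factor needed for insulin expression, stood at 17.8, 20.8 and 20.1 CPM against 45.0, 50.1 and 44.3 CPM (log2 fold change -1.24, SE 0.09, edgeR adjusted p = 1.26e-09). Nkx6-1 was at 31.8, 30.3 and 32.0 CPM against 65.2, 67.1 and 65.3 CPM (log2 fold change -1.07), and Isl1 at 85.0, 88.4 and 88.8 CPM against 189, 188 and 172 CPM (log2 fold change -1.06). None of the 3 overlapped between the groups, and in all 3 the GFP cells at 2 mM stood higher still.

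Pax6 differed by -0.84, Mnx1 by -0.83, Foxa1 by -0.77, Rfx6 by -0.73, Pdx1 by -0.62, Nkx2-2 by -0.50 and Mafa by -0.37. Of the 2 higher calls 1 was lost with library totals and in the test against 1.2-fold, that of Foxa2 at 141, 133 and 141 CPM against 116, 106 and 113 CPM (log2 fold change 0.31), and the other was kept in both. Neurod1 at -0.12, Hnf4a at -0.14 and Myt1 at -0.07 lay within 1.2-fold.

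Of 20 tested genes of granule contents and hormone processing 16 were lower and 0 higher, or 80.0% against 27.0%, with a median of -0.71. Ins1, the most abundant of them, stood at 4225, 4366 and 4339 CPM in ChREBPβ cells at 2 mM and 9182, 8116 and 9063 CPM in GFP cells at 11 mM, a log2 fold change of -1.03 (SE 0.06, edgeR adjusted p = 7.41e-12). Ins2 was listed at 26.0, 27.1 and 27.9 CPM against 45.1, 38.5 and 47.7 CPM (-0.70). The insulin genes are nearly identical and the counting could split their reads, so both values are uncertain. Iapp, the islet amyloid polypeptide, was at 917, 901 and 907 CPM against 1959, 1986 and 1923 CPM (log2 fold change -1.11). Pcsk1, which cleaves proinsulin, was at 10.0, 10.9 and 10.4 CPM against 30.0, 31.6 and 29.5 CPM, and with -1.53 (SE 0.07) its fold change was the most negative of the list. The groups did not overlap for any of these genes.

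Tmem163, a zinc transporter, differed by -1.44, the oxidase Ero1b by -1.09, Pcsk2 by -0.77, Pam, which amidates peptides, by -0.77, the granins Scg3, Chgb and Scg2 by -0.76, -0.71 and -0.70, and the zinc transporter Slc30a8 by -0.74. Ptprn2 at 0.12 lay within 1.2-fold, and Scg5 had 0.21, under the minimum fold. Against GFP at 2 mM, Pcsk1 changed by -1.61 with the virus and had -0.08 with glucose, and Vgf changed by -0.50 and had -0.02. Neither gene passed the test with glucose, and both fell with the virus. For Ins1 the same values were -1.44 and -0.41, and for Scg2 -1.35 and -0.65, so these fell with glucose too and fell further with the virus. In bulk RNA, fewer cells making a transcript and less of it in each cell cannot be told apart.

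The machinery of excitability and exocytosis was mixed, with 6 of 20 genes higher and 3 lower, or 45.0% against 27.0%, and 2 higher in the test against 1.2-fold. The potassium channel gene Kcnk16 stood at 464, 467 and 498 CPM against 342, 319 and 354 CPM (log2 fold change 0.49), with no overlap. Lower were Snap25 at -0.43, Rab27a at -0.42 and Kcnj11, the pore of the ATP-sensitive potassium channel, at -0.37. Its partner Abcc8 at 0.03, Stx1a at 0.01, Vamp2 at -0.13 and Rims2 at 0.05 lay within 1.2-fold.

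Receptors and cAMP signalling had 4 higher and 8 lower of 18 tested, or 66.7% against 27.0%. Oxtr, the oxytocin receptor and the largest decrease among genes of at least 5 CPM, was at 2.26, 3.35 and 2.38 CPM in ChREBPβ cells at 2 mM, 13.6, 13.7 and 11.9 CPM in GFP cells at 11 mM and 13.9, 13.5 and 13.1 CPM in GFP cells at 2 mM (log2 fold change -2.26, SE 0.13, edgeR adjusted p = 1.45e-11). The 2 GFP groups overlapped each other and stood well above the ChREBPβ libraries. Pde3b differed by -0.73, Crhr1 by -0.72, Adra2a by -0.56 and Gipr by -0.37. The phosphodiesterase Pde4b was higher, at 24.5, 26.9 and 25.2 CPM against 11.5, 11.9 and 12.9 CPM (log2 fold change 1.08), as was the somatostatin receptor Sstr3, by 0.64. Glp1r, the receptor for the incretin GLP-1, lay within 1.2-fold at -0.01, with -0.64 for the virus and -0.63 for glucose against GFP at 2 mM.

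Among the other large decreases was Gcg, the proglucagon gene that these cells also transcribe, at 430.3, 440.2 and 429 CPM against 1719, 1605 and 1647 CPM (log2 fold change -1.94, SE 0.04). Gfra1, a co-receptor for GDNF, differed by -1.89, the hormone gene Stc1 by -1.57, the P450 gene Cyp4a8 by -1.57, the polysialyltransferase gene St8sia2 by -1.55, the vitamin D receptor gene Vdr by -1.52 and Tox by -1.50. St3gal1 was at -1.44, Lin7a at -1.44, the GABA receptor subunit gene Gabrq at -1.43 and the phosphatase gene Ptprz1 at -1.42. These decreases were chosen among genes whose groups did not overlap.

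Immediate early genes, which calcium and cAMP are known to induce within minutes, went in both directions. Of 23 tested, 6 were called higher and 8 lower, or 60.9% against 27.0%, with a median of -0.10, and 4 were lower in the test against 1.2-fold. Egr1 stood at 6.20, 5.37 and 5.84 CPM in ChREBPβ cells at 2 mM, 12.8, 12.2 and 12.5 CPM in GFP cells at 11 mM and 11.5, 12.7 and 11.6 CPM in GFP cells at 2 mM (log2 fold change -1.12, SE 0.08). Nr4a1 stood at 14.8, 16.4 and 15.1 CPM against 31.1, 32.3 and 32.4 CPM (log2 fold change -1.04), with the groups apart, and Egr4 differed by -1.28, Jun by -0.42 and Nr4a2 by -0.43. Npas4 and Fosb were called lower at under 1 CPM in every library. Npas4 lost the call without replicate a of GFP at 11 mM or of ChREBPβ at 2 mM, and Fosb without replicate c of the former or b of the latter.

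Atf3, a stress-induced member of this list, was higher, at 29.5, 30.1 and 30.2 CPM against 4.87, 4.29 and 5.06 CPM (log2 fold change 2.65, SE 0.07, edgeR adjusted p = 2.86e-16). Nr4a3 was higher by 1.09, Junb by 1.00, Klf2 by 0.93, Btg2 by 0.51 and Ier5 by 0.50. Jund, Klf6 and Srf lay within 1.2-fold. Genes that feed back on ERK signalling had 4 higher and 4 lower of 14 tested, or 57.1% against 27.0%. The phosphatase gene Dusp4 was at 60.2, 63.9 and 63.6 CPM against 17.5, 19.2 and 18.3 CPM (log2 fold change 1.77), while Dusp10 and Spry1 differed by -0.77 and -0.77, and Dusp1 at -0.03, Spry4 at 0.08 and Spred2 at 0.02 were close.

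**Figure D3:**
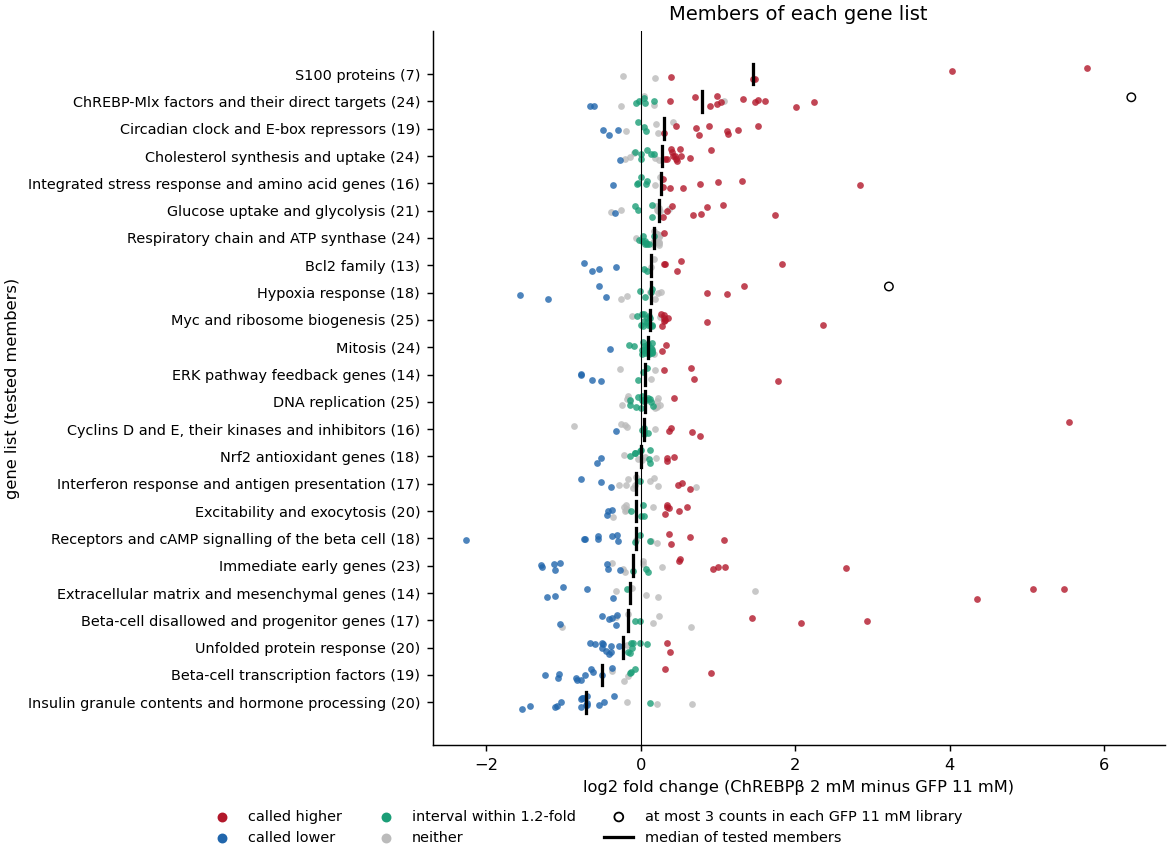
Log2 fold change between ChREBPβ at 2 mM and GFP at 11 mM for the tested members of 24 gene lists, with the number tested in parentheses, a black bar at the median and vertical scatter for legibility only. Medians run from -0.71 for granule contents to 1.45 for S100 proteins, and green points mark members whose interval lies within 1.2-fold, 14 of 25 for DNA replication, 18 of 24 for mitosis and 14 of 25 for Myc and ribosome biogenesis.

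Of 16 tested cyclins D and E, their kinases and inhibitors 5 were higher and 1 lower, or 37.5% against 27.0%, and the number lower was 1 to 4 under other settings except in the test against 1.2-fold, where it was 0. Ccnd1, the cyclin that with Cdk4 and Cdk6 starts the passage from G1, stood at 86.6, 101 and 92.4 CPM in ChREBPβ cells at 2 mM, 1.66, 2.01 and 2.35 CPM in GFP cells at 11 mM and 1.36, 1.66 and 1.89 CPM in GFP cells at 2 mM. Both GFP groups were low and overlapped, and the log2 fold change was 5.54 (SE 0.09, edgeR adjusted p = 1.78e-19). Ccnd2 was at 199, 207 and 213 CPM against 119.7, 139 and 132 CPM (log2 fold change 0.67), Cdkn1a, the inhibitor p21, differed by 0.77, E2f2 by 0.39 and Cdk4 by 0.36. Cdkn2c was lower at -0.32. Ccne1 at 0.04, Cdkn1b at 0.02, Rbl1 at 0.04, E2f1 at 0.10 and E2f3 at 0.04 lay within 1.2-fold.

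Of 25 DNA replication genes 1 was called, or 4% against 27.0% of all genes, and 14 (56%) lay within 1.2-fold against 31.0%. The libraries of the groups nevertheless did not overlap for 19 of the 25 (against 53.0% of all genes). Leaving out replicate a or b of GFP at 11 mM gave 2 higher calls, and leaving out replicate b of either group gave 1 lower call. Mcm10 was the called gene, at 55.7, 57.0 and 54.0 CPM against 42.4, 41.1 and 40.3 CPM (log2 fold change 0.43). Pcna, the sliding clamp of DNA polymerases, stood at 502, 493 and 500.1 CPM in ChREBPβ cells at 2 mM and 506, 482 and 498 CPM in GFP cells at 11 mM, and the interval of its log2 fold change was -0.07 to 0.08. Its groups overlapped. Mcm7, with non-overlapping groups at 368, 375 and 379 CPM against 326, 299 and 323 CPM, had 0.24, under the minimum fold. Mcm4 had an interval of -0.11 to 0.05, Rfc4 of -0.04 to 0.14 and Prim1 of -0.14 to 0.02.

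Among 24 tested mitosis genes 2 were higher, 1 was lower and 18 (75%) lay within 1.2-fold, so 12.5% were called against 27.0%. The groups did not overlap for 12 of the 24, next to 53.0% of all genes. Ccnb1, cyclin B1, was at 211, 214 and 216 CPM against 199, 218 and 207 CPM with overlapping groups (interval -0.05 to 0.13), and Cdk1, its kinase, had a log2 fold change of 0.08. Against GFP at 2 mM, Ccnb1 differed by 0.44 with the virus and 0.40 with glucose, and Cdk1 by 0.42 and 0.34. Aurka was higher by 0.33 and Birc5 by 0.28, both not called with library totals and Birc5 not without replicate b of GFP at 11 mM, and Kif23 was lower at -0.40. Mki67, the source of the Ki67 antigen, had 0.14 with a wide interval of -0.06 to 0.35, and its GFP libraries at 11 mM stood at 355, 469 and 369 CPM.

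**Figure D4:**
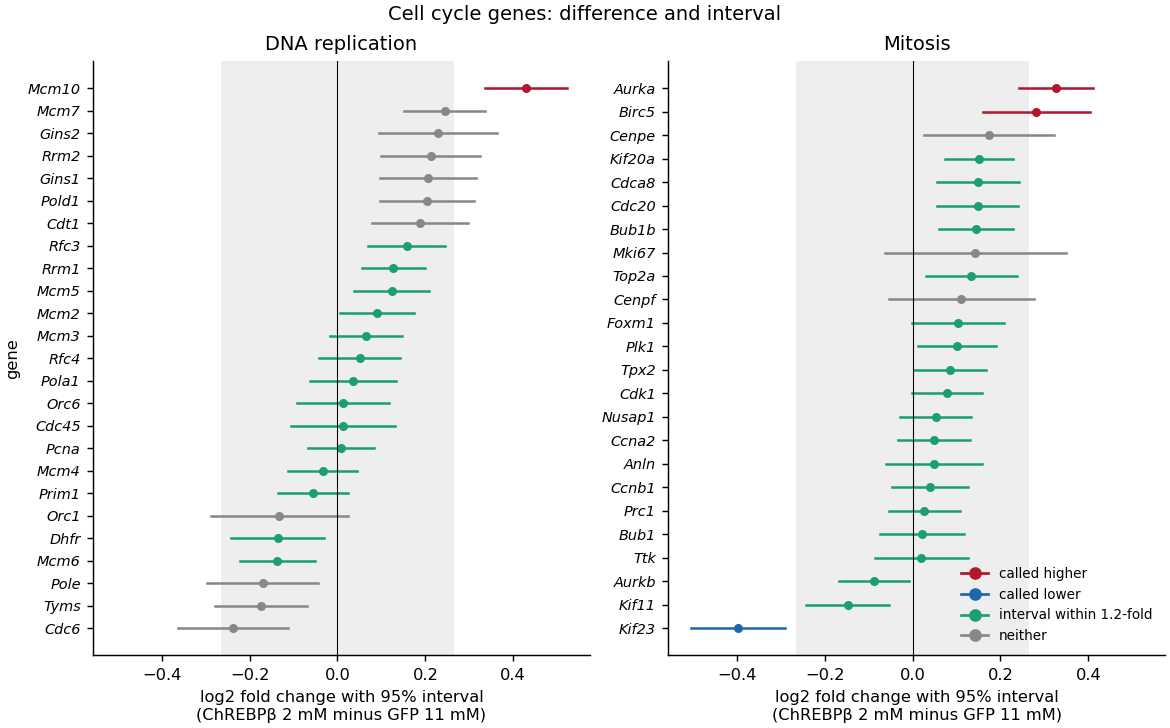
Log2 fold change between ChREBPβ at 2 mM and GFP at 11 mM (points) with its 95% interval (lines) for 25 DNA replication and 24 mitosis genes, the grey band marking 1.2-fold in either direction. The 14 and 18 green intervals lie wholly inside the band, with Mcm10, Aurka and Birc5 called above it and Kif23 below.

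Myc, a driver of growth, stood at 114, 108 and 109 CPM in ChREBPβ cells at 2 mM, 87.7, 90.3 and 95.2 CPM in GFP cells at 11 mM and 37.0, 38.9 and 42.1 CPM in GFP cells at 2 mM. Both conditions were far above GFP at 2 mM and did not overlap each other, by 0.28 on the log2 scale (95% interval 0.18 to 0.38). That call was lost with upper quartile factors or library totals, and without replicate a of either group. Mycn, its neural relative, was at 10.5, 12.2 and 11.1 CPM against 2.17, 1.98 and 2.43 CPM (log2 fold change 2.36, SE 0.13), and Mxi1, which competes for the partner Max, differed by 0.86.

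Ribosome biogenesis genes of the same list were mostly close. Of its 25 tested members 14 (56%) lay within 1.2-fold, and 9 were called higher with TMM factors, or 36.0% of the list called against 27.0%, but 5 with upper quartile factors, 3 with library totals and 2 in the test against 1.2-fold. Nop56 had an interval of 0.01 to 0.18, fibrillarin (Fbl) of -0.01 to 0.18 and Wdr12 of -0.08 to 0.14. Npm1 was at 1569, 1605 and 1521 CPM against 1243, 1244 and 1325 CPM (log2 fold change 0.30), which was not called with library totals.

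Respiratory chain and ATP synthase genes gave 1 call of 24, or 4.2% against 27.0%, Cox6c at 0.30, and it was lost with library totals. Leaving out replicate a, b or c of GFP at 11 mM gave 5, 0 and 4 higher genes, and 2 were higher without replicate a of ChREBPβ at 2 mM. Their median was 0.17 with all but 2 values above 0, and 9 lay within 1.2-fold while 14 were neither called nor within. Uqcrc2 at 0.02 and Ndufs1 at -0.03 were among the closest, and Atp5b, at 2518, 2569 and 2643 CPM against 2262, 2091 and 2227 CPM, had 0.23 without overlap of the groups, under the minimum fold.

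In the Bcl2 family, which controls apoptosis at mitochondria, 5 of 13 tested were higher and 4 lower, or 69.2% against 27.0%. Bmf, a BH3-only activator, stood at 10.2, 11.0 and 9.96 CPM in ChREBPβ cells at 2 mM and 3.34, 2.49 and 2.88 CPM in GFP cells at 11 mM (log2 fold change 1.83, SE 0.11). The ChREBPβ libraries all stood above the GFP libraries. Bcl2l11, known as Bim, differed by 0.47 and Bcl2, which opposes them, by 0.53, while Bnip3 and Bok were lower at -0.63 and -0.54. Bcl2l1 at 0.08 and Bnip3l at 0.04 were within 1.2-fold. With library totals 3 members were called higher.

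Of 20 tested genes of the unfolded protein response 10 were lower with the virus, 2 were higher and 7 lay within 1.2-fold, or 60.0% called against 27.0%, with a median of -0.23. Hspa5, the chaperone BiP, stood at 1087, 1149.5 and 1111 CPM against 1493, 1445 and 1518 CPM (log2 fold change -0.41, SE 0.04), and the groups did not overlap. Sdf2l1 differed by -0.66, Creld2 by -0.60, Hyou1 by -0.51, Pdia6 by -0.50 and Edem1 by -0.49. Herpud1 and the sensor Ern1 were higher by 0.38 and 0.34, and Xbp1 at -0.01, Atf6 at -0.13 and Calr at 0.08 lay within 1.2-fold.

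Genes of the integrated stress response and of amino acid synthesis were higher in 8 of 16 tested and lower in 1, or 56.2% against 27.0%, and the number higher was 5 with library totals. Psph, the last enzyme of serine synthesis, stood at 512, 499 and 527 CPM in ChREBPβ cells at 2 mM, 74.2, 66.7 and 74.7 CPM in GFP cells at 11 mM and 51.5, 51.4 and 50.3 CPM in GFP cells at 2 mM (log2 fold change 2.83, SE 0.05, edgeR adjusted p = 3.03e-19). Asns, asparagine synthetase, was at 222, 225 and 229 CPM against 88.4, 88.7 and 96.6 CPM (log2 fold change 1.31). The ChREBPβ libraries stood apart from all GFP libraries for both genes, and Chac1, Trib3 and Atf4 differed by 1.01, 0.76 and 0.38. Ddit3, the death-associated factor CHOP, lay within 1.2-fold at 0.07, as did Shmt2, Mthfd2, Slc3a2 and Vldlr.

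Nrf2 antioxidant genes gave 3 higher and 2 lower calls of 18 tested, or 27.8%, next to 27.0% of all genes, with a median of 0.01 next to -0.01. Taldo1 was higher by 0.43 and Nfe2l2, which encodes Nrf2, by 0.34. Lower were Gstm1 at -0.57 and Gclm, a subunit of the enzyme that begins glutathione synthesis, at 57.8, 64.3 and 60.8 CPM against 87.6, 87.6 and 86.1 CPM (-0.51). Keap1, Nqo1, Txnrd1, Txn1, Prdx1, Sqstm1 and Gsta4 lay within 1.2-fold, between -0.14 and 0.12.

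Of 18 tested genes of the hypoxia list 4 were higher and 4 lower, or 44.4% against 27.0%. Epas1, the HIF-2α gene, stood at 30.4, 31.7 and 30.6 CPM against 70.0, 74.2 and 69.7 CPM (log2 fold change -1.20, SE 0.05), and Ero1a differed by -0.54. Egln3, a hydroxylase that marks HIF for degradation, was higher, at 51.2, 52.6 and 55.9 CPM against 21.5, 20.8 and 21.0 CPM (log2 fold change 1.34). Vegfa at -0.01, Hif1a at 0.06, Ndrg1 at 0.15 and Kdm3a at 0.13 lay within 1.2-fold. Adm had 5, 18 and 21 counts against 2, 0 and 2 counts.

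Circadian clock genes and E-box repressors were higher in 9 of 19 and lower in 3, or 63.2% against 27.0%, with a median of 0.30, and the number lower was 1 without replicate b of ChREBPβ at 2 mM. Nr1d1, the repressor Rev-erbα, stood at 26.5, 24.9 and 27.4 CPM against 10.6, 13.3 and 12.4 CPM (log2 fold change 1.12), Bhlhe41 at 36.7, 34.4 and 34.1 CPM against 16.6, 16.1 and 15.5 CPM (1.12) and Ciart differed by 1.26. Tef and Arntl differed by 0.76 and 0.72, and Cry2 was lower at -0.41. Per1, Per2 and Cry1 lay within 1.2-fold. Bhlhe40 and Bhlhe41 are close relatives, and against GFP at 2 mM the former differed by 2.87 with the virus and 1.36 with glucose, the latter by 1.12 and 0.00.

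Progenitor and disallowed genes gave 3 higher and 6 lower calls of 17 tested, or 52.9% against 27.0%, and 2 lower in the test against 1.2-fold. Sox9, a factor of pancreatic progenitors and ducts, was at 8.24, 8.06 and 8.27 CPM against 1.02, 1.23 and 0.994 CPM (log2 fold change 2.93, SE 0.14), and Hes1, a target of Notch, at 25.7, 27.1 and 26.7 CPM against 7.15, 5.95 and 5.73 CPM (log2 fold change 2.08). The groups did not overlap for either. Cxcl12, Igfbp4 and Lmo4 were lower at -1.05, -0.50 and -0.41. Neurog3 and Aldh1a3 were at 0 or 1 count in each of the 6 libraries. Interferon and antigen presentation genes gave 3 higher and 3 lower calls of 17, or 35.3% next to 27.0% of all genes, with Irf7 at 0.64, Tap1 at 0.48 and Mx2 at -0.78.

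For called genes, the GFP cells at 2 mM show where the reference level lay relative to the 2 groups compared. Among the 2888 called genes that averaged 5 CPM or more and did not overlap, the GFP mean at 2 mM was within 1.2-fold of that at 11 mM for 1872 (64.8%) and within 1.2-fold of ChREBPβ at 2 mM for 392 (13.6%). For 257 (8.9%) all 3 GFP libraries at 2 mM stood between the groups. The placements can overlap, and 821 genes (28.4%) fell in none of them. The same shares over all tested genes were not computed, so these are not read as particular to called genes. Between the 2 GFP groups, 20.2% of all tested genes were called.

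The first placement, with the GFP groups near each other, is shown by its largest differences. Lgals9, galectin-9, was at 127, 139 and 133 CPM in ChREBPβ cells at 2 mM, 18.6, 19.0 and 17.0 CPM in GFP cells at 11 mM and 16.8, 17.6 and 16.7 CPM in GFP cells at 2 mM. The GFP groups lay together far below the ChREBPβ group, and the log2 fold change was 2.88. Sema3e, a guidance ligand, differed by 2.44, the potassium channel gene Kcna6 by 2.43 and Cyth1 by 2.14, next to Ngfr, Atf3, Mycn and Oxtr given above.

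In the second placement, with GFP at 2 mM near ChREBPβ at 2 mM, the 8 largest differences were all under 1 on the log2 scale. Flcn, the folliculin gene of nutrient sensing at the lysosome, was at 96.7, 89.7 and 107 CPM in ChREBPβ cells at 2 mM, 55.8, 54.1 and 53.4 CPM in GFP cells at 11 mM and 85.9, 86.2 and 91.9 CPM in GFP cells at 2 mM (log2 fold change 0.85, SE 0.06). Here the cells at 11 mM were the low ones. Dmrta1 and Ppfia4 were likewise low at 11 mM, with log2 fold changes of 0.84 and 0.72, while C2cd4a, Slc26a2, a sulfate transporter, Gcnt3 and Bst2 were highest with GFP at 11 mM, at -0.83, -0.77, -0.70 and -0.68. The entry AY172581.19 met the rule at 0.86, with GFP libraries at 2 mM spread over 4.19, 7.73 and 10.9 CPM.

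In the third placement the GFP libraries at 2 mM lay between the other groups. Nnat, neuronatin, stood at 2044, 2006 and 2095 CPM in ChREBPβ cells at 2 mM, 392, 349.8 and 385 CPM in GFP cells at 11 mM and 466, 484 and 582 CPM in GFP cells at 2 mM (log2 fold change 2.45, SE 0.07). Blnk, an adaptor protein, was at 9.17, 9.45 and 10.3 CPM, 2.54, 2.97 and 1.99 CPM and 6.10, 6.74 and 7.37 CPM in the same order, with log2 fold changes against GFP at 2 mM of 0.52 for the virus and -1.44 for glucose. Tmem200a differed by 1.62, Flrt1 by 1.60, Camkk1, a kinase upstream of AMPK, by 1.55, Zcchc24 by 1.55 and LOC688553 by 3.08. Id4, an inhibitor of helix-loop-helix factors, ran the other way, at 27.6, 36.0 and 30.5 CPM, 94.5, 99.0 and 96.2 CPM and 83.6, 85.3 and 74.0 CPM (log2 fold change -1.61). Glucose against GFP at 2 mM gave -0.07 for Camkk1, -0.50 for LOC688553 and 0.25 for Id4, none of them called. The other genes named for this placement were called lower with glucose.

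**Figure D5:**
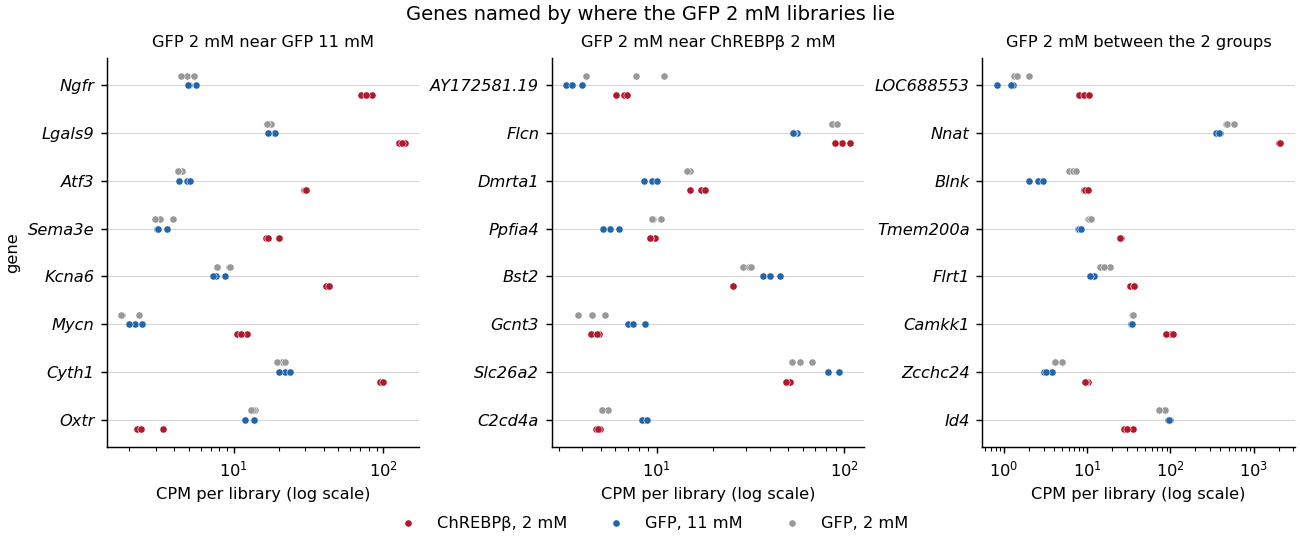
CPM per library on a log axis for 24 genes in 3 panels, set by whether the GFP libraries at 2 mM (grey) lie near GFP at 11 mM (blue), near ChREBPβ at 2 mM (red) or between them. In the left panel the grey points lie with the blue and the red stand apart. In the middle panel the grey mean is within 1.2-fold of the red, and on the right grey lies between. Placements overlap for Dmrta1, C2cd4a, Slc26a2 and Bst2 in the middle, whose grey points also lie between. They overlap too for Camkk1 and Id4 on the right, whose grey mean is also within 1.2-fold of the blue.

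The cells were checked against their markers. All 12 defining genes of β-cells were above 3 counts in every library. Their summed level was 6908 to 7034 CPM in ChREBPβ cells at 2 mM and 12120 to 13110 CPM in GFP cells at 11 mM. Ins1 made up most of both sums. Of the 12 genes 8 were called lower and 1 higher, or 75.0% against 27.0% of all genes, and 3 lay within 1.2-fold. The sum of 8 markers of other islet cells, nearly all of it Gcg, was 431.0 to 442.3 CPM against 1607 to 1722 CPM. Sst, Ppy and Irx2 had 0 to 4 counts in each of the 6 libraries. Of 7 acinar and duct markers only Krt7, which this line transcribes, exceeded 3 counts in any of the 6 libraries, at 153, 156 and 162 CPM against 114, 103 and 106 CPM (log2 fold change 0.55). The 10 matched markers of fibroblasts, endothelium and leukocytes summed to 1.78 to 3.54 CPM against 1.90 to 2.79 CPM, with Dcn, Lum and Ptprc at 0. Pdgfrb had 26, 23 and 35 counts against 1, 0 and 0 counts. The part of any of these markers in the differences above was not tested.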

How the data were processed

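RNA from 12 libraries of INS-1 832/13 cells, 3 in each of 4 groups, had been amplified and sequenced, and the deposited table holds the raw counts per gene that the authors obtained. The submitters' processing notes name the Rnor_6.0 build and edgeR; the aligner, the counter and whether counting used strand are not given in the sources used here, so overlapping and antisense genes cannot be told apart. The table also holds group means of these counts, which were not used. The 1 row without a gene name took 0.0043% to 0.00601% of the counts of a library and was left out. 26 names that a spreadsheet had turned into dates were kept as they stand.

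Genes were filtered with filterByExpr, scaled by TMM and fitted with edgeR 4.0.16 (R 4.3.3, limma 3.58.1) on all 12 libraries, with group as the only term, and tested with the quasi-likelihood test, Benjamini-Hochberg adjusted over 14669 genes. The steps were tested on simulated data. Intervals are 95% intervals from the same fit. CPM values are counts over the scaled library size, so their precision follows the depth. The intervals include the spread between libraries of a group as the fit estimates it, whereas floors from counts cover counting error only. The chi-square per degree of freedom between libraries of a group was 3.13 to 17.5, so no pair agreed within sampling noise.

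Named genes were, per list, up to 6 called members with the largest fold change in each direction and those within 1.2-fold. The 15 largest increases, the 15 largest decreases and 8 genes for each placement of GFP at 2 mM were also named. These were taken from called genes of at least 5 CPM whose groups did not overlap. Other members were named after their values were seen. The comparison and the 24 gene lists and 4 marker lists, with 534 genes of which 523 matched and 460 were tested, were chosen with earlier results of these data known. The 11 genes without an entry were not analysed here, and some listed genes are counted in their lists but not reported here by name. DESeq2 1.42.0 and other scalings, filters and sets of libraries were run as alternatives.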

Additional observations from a re-analysis of the deposited data

How the results depend on the processing

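Of 3955 called genes, 2360 passed a test against 1.2-fold itself (1171 higher and 1189 lower). Without a minimum fold change 6109 were called (2981 higher), and at a minimum of 2-fold 795 (501 higher and 294 lower). With RLE, upper quartile or no scaling factors, DESeq2, the likelihood ratio test, other filters or the 2 groups alone the total was 3678 to 4300. Leaving out 1 library gave 3613 to 3911 genes, with 1667 to 1842 higher and 1946 to 2095 lower. Library totals shifted the median of all genes from -0.01 to -0.08 and gave 1418 higher and 2882 lower calls. Of 501 listed or named genes 255 were called, none reversed under any alternative, and 22 lost their call with library totals, 59 in the test against 1.2-fold and 7 to 14 without 1 library. Genes at least 8-fold apart, 63 higher and 7 lower, numbered 101 and 31 without a filter on low counts and 15 and 0 with at least 10 counts in every library. Small counts per list moved most, such as the cyclin list with 1 lower gene, 4 with library totals.

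With the replicate letter as a block 3926 genes were called (1784 higher and 2142 lower) and 1 listed or named gene, Npas2, lost its call. Between the 2 groups compared, deviations of libraries with the same letter correlated at 0.006, 0.016 and -0.003. These values gave no sign of a shared shift by letter, but cannot show whether libraries of 1 letter were handled together. Depth limited genes with few counts, where a fold has no firm size.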
